A study of Mus musculus with 4 samples.

Results

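Potassium channels and transient receptor potential (TRP) channels were examined in CD31+ CD45- cells of mouse spleen. Markers of endothelium and of other cell types were both seen in them, as given below. The members were every gene with a probe named as a potassium channel subunit (Kcn), a TRP channel (Trpa, Trpc, Trpm or Trpv) or a mucolipin (Mcoln), leaving out Kcnj8, Kcne3 and Trpv4. They came to 116 of 30194 gene names, measured by 175 of 39429 probes. Of these, 69 genes had 1 probe and 47 had several. Names, not measured values, chose them.

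Potassium channels let potassium leave the cell and so set the membrane voltage. In endothelium a more negative voltage raises the driving force for calcium entry, and calcium switches on nitric oxide synthesis and spreads hyperpolarisation to smooth muscle. TRP channels are cation channels opened by lipids, calcium, temperature or stretch, several of which let calcium in, and mucolipins are their relatives in the membranes of lysosomes.

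The cells came from Ackr4GFP/wt mice, which carry 1 reporter allele for green fluorescent protein (GFP) at the locus of the atypical chemokine receptor gene Ackr4. All 4 samples shared this genotype and the same enzyme digestion of the spleen at 37 °C for 45 and then 20 min, red cell lysis and bead depletion of CD45+ cells. From the living CD31+ CD45- single cells, those with GFP were collected as ACKR4-positive and those without it as ACKR4-negative. Both groups were taken in 2 independent sorts, each from a pool of 2 to 3 mice, so there were 2 arrays per group. The replicate number of the labels is read here as the sort, which the labels do not state. GFP stood for ACKR4 in the gate, the ACKR4-negative group was every other CD31+ CD45- cell, and the age and sex of the mice are not given in the sources used here. Each sample was read on a 1-colour Agilent array, and a level below is the log2 signal of a gene's brightest probe minus the array's 75th percentile, so 0 marks that percentile.

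Ackr4 itself followed the labels. Its levels were -7.53 and -7.50 on the ACKR4-negative arrays of sorts 1 and 2, not well above background, and -0.21 and 2.55 on the ACKR4-positive arrays, at least 107-fold higher (adjusted p = 0.0180). Between 21663 and 22976 of 39429 probes were well above background per array. Of 10 endothelial markers 10 were tested, among them the adhesion genes Pecam1 and Cdh5, well above background on all 4 arrays. The summed signal of the 10, relative to each array's 75th percentile, was 407 and 373 in ACKR4-negative and 238 on both arrays of ACKR4-positive cells, and 3 of them fell. Median spike-in signal was 847 on the ACKR4-negative array of sort 1 against 2805 to 3432 on the others, and its part in the results was not tested. The ACKR4-positive array of sort 1 also stood apart, since 140 of 17361 tested genes were at least 2 log2 units higher on it than on each of the other 3 arrays, against 19 to 32 such genes for the other arrays.

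Signal of 64 members was well above background on at least 1 array. Of the 116 members, 40 were well above background on all 4 arrays, 24 on 1 to 3 arrays and 52 on none. Among all 30194 gene names, 15697 were well above background on all 4 arrays at their brightest tested probe. Single arrays showed 47 to 54 of them, with 50 and 52 in ACKR4-negative cells and 54 and 47 in ACKR4-positive cells. The families differed in how much of each was seen. Of 40 voltage-gated pore subunits 15 were well above background on all 4 arrays, and of 14 two-pore-domain potassium channels 7 were. Of 14 inward rectifiers, 1 was seen on all 4 arrays and 9 on none. The irritant receptor Trpa1 and 3 of 4 auxiliary subunits of the large-conductance calcium-activated channel were on no array.

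**Figure D1:**
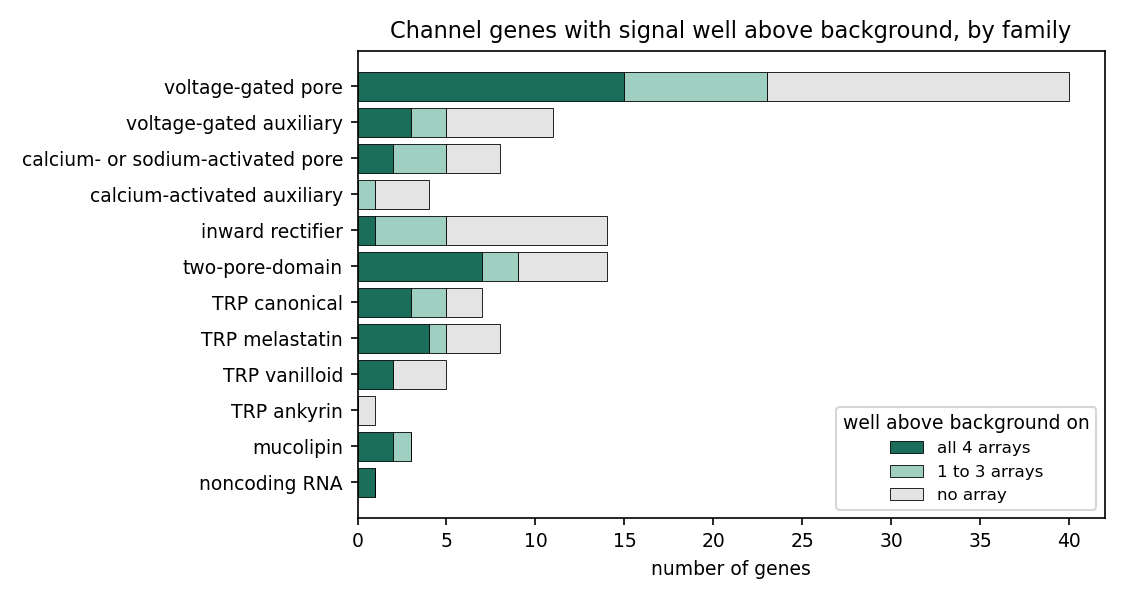
Number of genes (horizontal axis) in each channel family, split by whether the brightest probe was well above background on all 4 arrays, on 1 to 3 arrays or on none. Voltage-gated pore subunits are the largest family, with 15 of 40 on all 4 arrays, and of the 14 inward rectifiers 9 were on no array.

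Some channels known from endothelium were well above background on 1 array and others on all 4 arrays. Kcnj2, the main inward rectifier of many endothelial cells, had levels of -5.30 and -4.86 on the ACKR4-negative arrays against -7.16 and -6.92 on the ACKR4-positive ones and was well above background on 1 array. Kcnma1, the pore of the large-conductance calcium-activated channel, was well above background on 1 array too, at levels of -5.15, -7.52, -5.56 and -6.59 in the same order. Neither was tested. The small- and intermediate-conductance calcium-activated channels Kcnn3 and Kcnn4, which hyperpolarise endothelium when calcium rises, were well above background on all 4 arrays.

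Members whose detection split by group numbered 10, given as a description, since the share of all genes with such a split was not counted. Trpm6, Kcnc1, Kcnf1 and Kcnu1 were well above background on both ACKR4-positive arrays and on neither ACKR4-negative array. Kcna3, Kcns3, Kcnj5, Kcng4, Mcoln2 and Trpc6 showed the opposite split. Such a split alone was no difference in level, since Kcnf1 lay at -5.19 and -4.91 without and at -4.84 and -4.48 with ACKR4 (log2 fold change 0.39 ± 0.30 (SE, n = 2 per group), adjusted p = 0.679).

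Between the groups, 54 members could be tested and 62 could not, because the filter asked for signal well above background in both sorts of one group or the other. The tested share was 46.6% of the members, against 57.5% of all gene names. Of the 54, 14 passed the threshold (limma, adjusted p under 0.05 over all 17361 tested genes), 5 higher and 9 lower in ACKR4-positive cells. At an unadjusted p under 0.05 there were 20, where 16.3% of all tested genes were. Over all tested genes the share called was 5.65%, with 1.92% risen and 3.73% fallen, against 25.9% of the tested members. Of the 14, 7 were well above background in 1 group alone and passed the filter through it. A filter of this kind favours genes that differ without requiring it, so the share is given as a description. The median log2 fold change was 0.03 for the tested members and 0.04 for all tested genes, and the median size without sign was 0.55 against 0.36.

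By at least 2-fold in both sorts, 7 members were higher in ACKR4-positive cells, where 5.11% of all tested genes were, and 12 were lower, where 7.44% were. All 14 called members were among these 19. Among the other 5 were Kcnu1, higher, and Kcnk3, Kcnab1 and Kcnk6, lower. Smaller differences were less even, with 21 members higher in both sorts (38.4% of all tested genes), 20 lower in both (34.6%) and 13 of opposite sign. The groups did not overlap in 15 members that were higher (23.2% of all tested genes) and 19 that were lower (21.7%) in ACKR4-positive cells. With the sort as a block, 21 members were called (15.6% of all tested genes), 7 risen (6.88% of all tested genes) and 14 fallen (8.73%), and the 14 calls without the block were all kept.

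**Figure D2:**
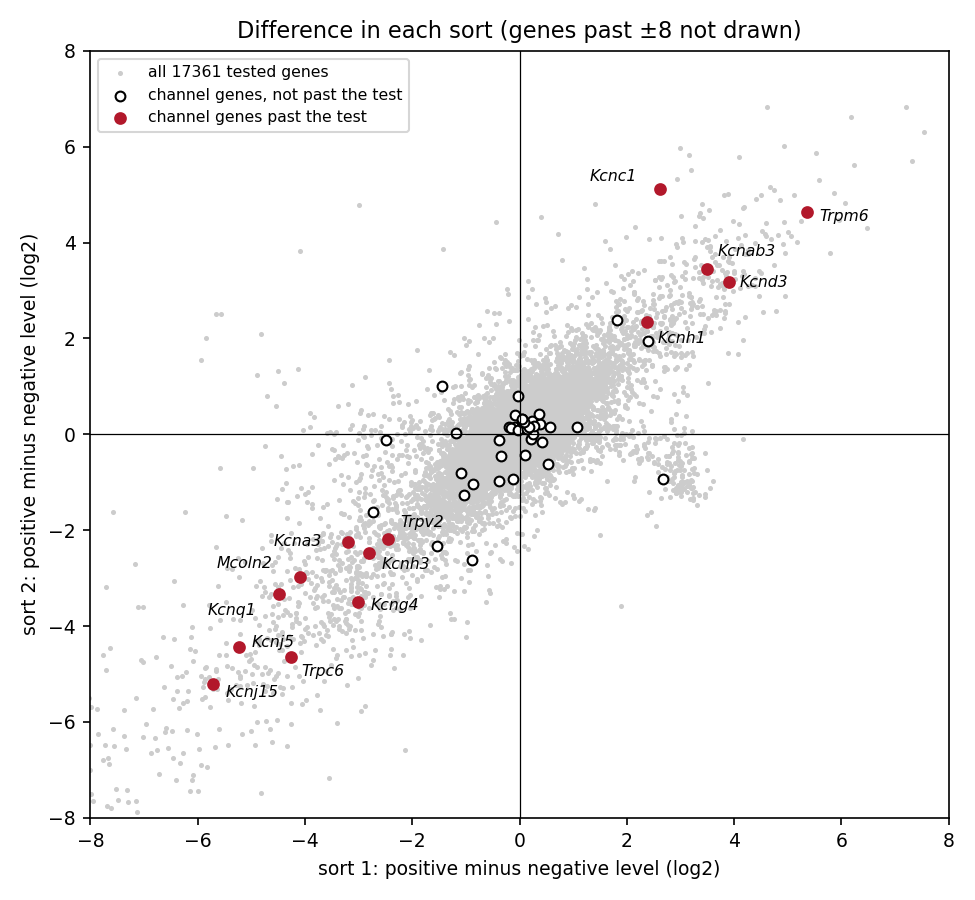
Difference in level, ACKR4-positive minus ACKR4-negative (log2), in sort 1 (horizontal) and sort 2 (vertical). Grey points are the 17361 tested genes, open circles the channel genes that did not pass the test and filled circles the 14 that did, all of which lie beyond 1 log2 unit in both sorts.

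Each probe reads 60 bases of a transcript, and some genes were called from 1 probe while another probe of the same gene was near background. The ends of probes are shown to make this visible, for all 6 called members whose brightest probe holds the capital letters explained next and for 3 called members without them, Kcnj5, Trpc6 and Kcnc1, with the second probes of Kcnq1, Kcnd3 and Kcnj15. Each line gives the last 30 of 60 bases, 5′ to 3′, with capitals for AATAAA or ATTAAA, the letters of the polyadenylation signal that lies just before the end of most messenger RNAs, searched on the probe's strand alone and with overlaps allowed. Positions are on mm9, and whether a probe lies in an exon or a UTR is not analysed here.
Trpm6 (chr19:18966941-18967000, plus strand): gaactagggAATAAAttaatttattttctc
Kcnj5 (chr9:32122418-32122477, minus strand): tatcgtggtgacctaagtgtgaggggactg
Trpc6 (chr9:8680682-8680741, plus strand): aaattgcattgctgaggctaacaattgctg
Kcnh3 (chr15:99073172-99073231, plus strand): ctcatgttttttatATTAAAaaacATTAAA
Mcoln2 (chr3:145858409-145858468, plus strand): aagtgtagatttttcATTAAATAAAtttat
Kcnq1, brightest probe (chr7:150612887-150612946, plus strand): ttttccaAATAAAgttgggacgtcccaggt
Kcnq1, second probe (chr7:150612896-150612955, plus strand): taaagttgggacgtcccaggttgatcttgg
Kcnd3, brightest probe (chr3:105476854-105476913, plus strand): tgtatccaatctggATTAAAcaaattacgt
Kcnd3, second probe (chr3:105471938-105471997, plus strand): aaactgcaaaacatcccagattaccacggc
Kcnj15, brightest probe (chr16:95521158-95521217, plus strand): acaaaatatgtaatgtttaggtcAATAAAt
Kcnj15, second probe (chr16:95519395-95519454, plus strand): actgtgtcacaaataggaagtctgcattag
Kcnc1, brightest probe (chr7:53688622-53688681, plus strand): aagttccaaaattatgatgggaaatttttt

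Of the 14 called members, 6 had these letters in the end shown of their brightest probe. Of all 39429 probes, dim ones and second probes of a gene included, 5419 or 13.7% had them in the same window. The brightest probes of all tested genes were not counted, so these shares are not of like sets and are given as a description. Kcnd3 was bright at a probe 4916 bases downstream of a second probe that was well above background on no array, and Kcnj15 at a probe 1763 bases from a second probe that was well above background on none either. For Kcnc1 the other 2 probes, 5855 and 5090 bases away, were not tested, and 1 of them was well above background on 1 array. Kcnq1 had 2 tested probes whose starts are 9 bases apart, so their differences of -3.91 and -3.86 repeat 1 stretch of sequence.

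**Figure D3:**
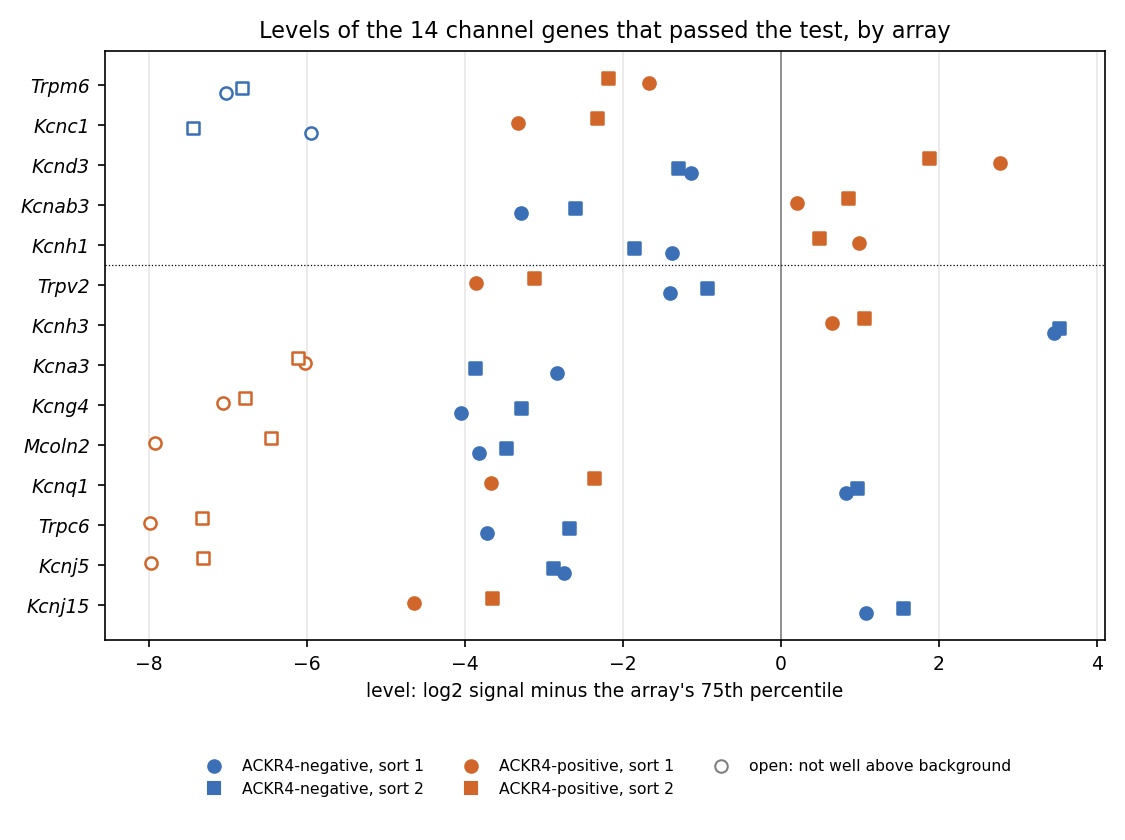
Level of each of the 14 called members on each array (log2 signal minus the array's 75th percentile), with circles for sort 1, squares for sort 2 and open symbols where the probe was not well above background. The 5 genes above the dotted line were higher on both ACKR4-positive arrays and the 9 below it lower, with no overlap between groups.

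Voltage-gated subunits open when the membrane depolarises, and in ACKR4-positive cells some rose while others fell. Of 40 pore subunits 21 were tested, of which 3 rose, 4 fell and 14 did not pass. The rises were in Kcnd3, Kcnh1 and Kcnc1, and of 4 tested auxiliary subunits Kcnab3 rose. The falls were in Kcnh3, Kcnq1, Kcna3 and Kcng4.

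Kcnd3 encodes Kv4.3, a pore of fast-inactivating A-type current. Its levels were -1.14 and -1.30 on the ACKR4-negative arrays and 2.77 and 1.87 on the ACKR4-positive arrays. Both ACKR4-positive values lay far above both others, by 3.54 ± 0.40 (SE) on the log2 scale or 11.6-fold (adjusted p = 0.0188). Its relative Kcnd1, with levels of 1.15, 0.76, 1.33 and 0.92 in the same order, overlapped between groups, and its difference of 0.17 had a 95% interval from -0.69 to 1.02. The other Kcnd1 probes had mean levels of -6.62 and -7.39 and were well above background on no array.

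Kcnab3 encodes a cytoplasmic beta subunit that binds voltage-gated pores. It lay at -3.29 and -2.61 in ACKR4-negative and at 0.20 and 0.85 in ACKR4-positive cells. Both sorts thus showed a similar gap, and the rise was 3.47 ± 0.41 or 11.1-fold (adjusted p = 0.0207). The beta subunit gene Kcnab1 had the opposite pattern, at -3.85 and -2.91 against -5.40 and -5.25, a difference of -1.94 ± 0.41 that did not pass the test (adjusted p = 0.0857). Kcnab1 passed with the sort as a block (adjusted p = 0.00918), and over 13 alternatives its adjusted p ran from 0.00918 to 0.473. Kcnab2, the remaining beta subunit, was well above background on no array.

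Kcnh1 and Kcnh3 belong to the ether-à-go-go family and differed in opposite directions. Kcnh1 rose from -1.38 and -1.86 to 0.99 and 0.48, a difference of 2.36 ± 0.35 (adjusted p = 0.0363). Kcnh3 fell from 3.46 and 3.52 to 0.65 and 1.05, a difference of -2.64 ± 0.29 (adjusted p = 0.0184). In neither gene did the groups overlap. Their relative Kcnh4 lay between -0.92 and -0.59 on the 4 arrays, with a difference of 0.19 ± 0.27, and Kcnh8, Kcnh6, Kcnh2, Kcnh7 and Kcnh5 were not tested.

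Kcnq1, the pore that pairs with Kcne subunits in heart and epithelia, fell. Its signal lay at 0.82 and 0.96 without ACKR4 and at -3.68 and -2.37 with it, a gap of -3.91 ± 0.51 or 15.1-fold (adjusted p = 0.0254). The brightest probe of Kcnq1ot1, a noncoding RNA transcribed from within the same locus, stayed between -3.04 and -2.60 on the 4 arrays, with a difference of -0.02 ± 0.30. Its other probe was not tested and lay at -6.6 and -5.7 against -6.1 and -4.6, higher in both sorts. That probe was well above background on the ACKR4-positive array of sort 2 alone. Kcnq3 and Kcnq5 were well above background on no array.

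Kcnc1, Kcna3 and Kcng4 were seen in 1 group alone, so their folds are given as lower bounds against the dimmest signals well above background. Kcnc1 encodes Kv3.1, a fast-repolarising pore, and lay at -5.95 and -7.45 against -3.34 and -2.34 (3.86 ± 0.65, at least 6.66-fold higher, adjusted p = 0.0480). Kcna3, the Kv1.3 pore known from lymphocytes and platelets, lay at -2.84 and -3.88 against -6.03 and -6.12 (-2.72 ± 0.43, at least 4.96-fold lower, adjusted p = 0.0427). Kcng4 encodes a silent subunit that forms channels only together with other pores, and lay at -4.05 and -3.29 against -7.07 and -6.79 (-3.25 ± 0.37, at least 3.99-fold lower, adjusted p = 0.0197). Each gene was separated between groups in both sorts, at signals near the lower end of what the arrays resolved.

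Of the other silent subunits, which do not form channels alone, Kcns3 lay at -4.73 and -3.83 against -5.61 and -6.46 and did not pass (-1.75 ± 0.49, adjusted p = 0.164). Kcng3 was at -4.64 and -4.55 in ACKR4-negative cells and at -1.98 and -5.47 in ACKR4-positive cells, so the array of sort 1 alone was high and the difference was 0.87 ± 1.19 (adjusted p = 0.837). That array was the one on which 140 tested genes stood at least 2 log2 units above their level on all others, and its part in the Kcng3 value was not tested.

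The shaker-type pores Kcna4 and Kcna6 were bright in both groups. Kcna4 lay at 1.26 and 0.84 against 1.35 and 0.40, with a difference of -0.17 ± 0.43. Kcna6 lay at 0.75 and 0.49 against 0.79 and 0.76, with a difference of 0.15 ± 0.27. This was its brightest probe, while the other Kcna6 probes had mean levels of -7.06 and -7.50 and were well above background on no array. Kcna5, a pore of vascular muscle, was lower in both sorts at its brightest probe without passing (-0.68 ± 0.39, adjusted p = 0.540). The other Kcna5 probe was not tested and lay at -5.96 and -2.95 against -7.63 and -7.27, a difference of -3.00. It was well above background on the ACKR4-negative array of sort 2 alone.

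Several of these calls were lost when 1 array was left out, which leaves fewer arrays to test. Kcnd3 and Kcnq1 lost the call without the ACKR4-negative array of either sort (highest adjusted p 0.0625 and 0.0701). Kcnab3 lost it without that of sort 1 alone (0.0680), and Kcng4 without the ACKR4-negative array of sort 2 or the ACKR4-positive array of sort 1 (highest 0.0647). Kcnh3 kept it only without the ACKR4-positive array of sort 2 (highest 0.0868), Kcna3 only without the ACKR4-negative array of sort 2 (0.128) and Kcnc1 only without that of sort 1 (0.107). Kcnh1 lost it without any one array (0.157). The log2 fold changes stayed within 1.5 times their value in all these fits. Normexp background correction with an offset of 50, which shrinks differences between dim signals, ended the calls of Kcnc1 (1.18), Kcna3 (-0.89) and Kcng4 (-0.86). Quantile normalization ended those of Kcna3 (adjusted p = 0.0542) and Kcnc1 (0.0634), and median centring that of Kcna3 (0.0510).

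**Figure D4:**
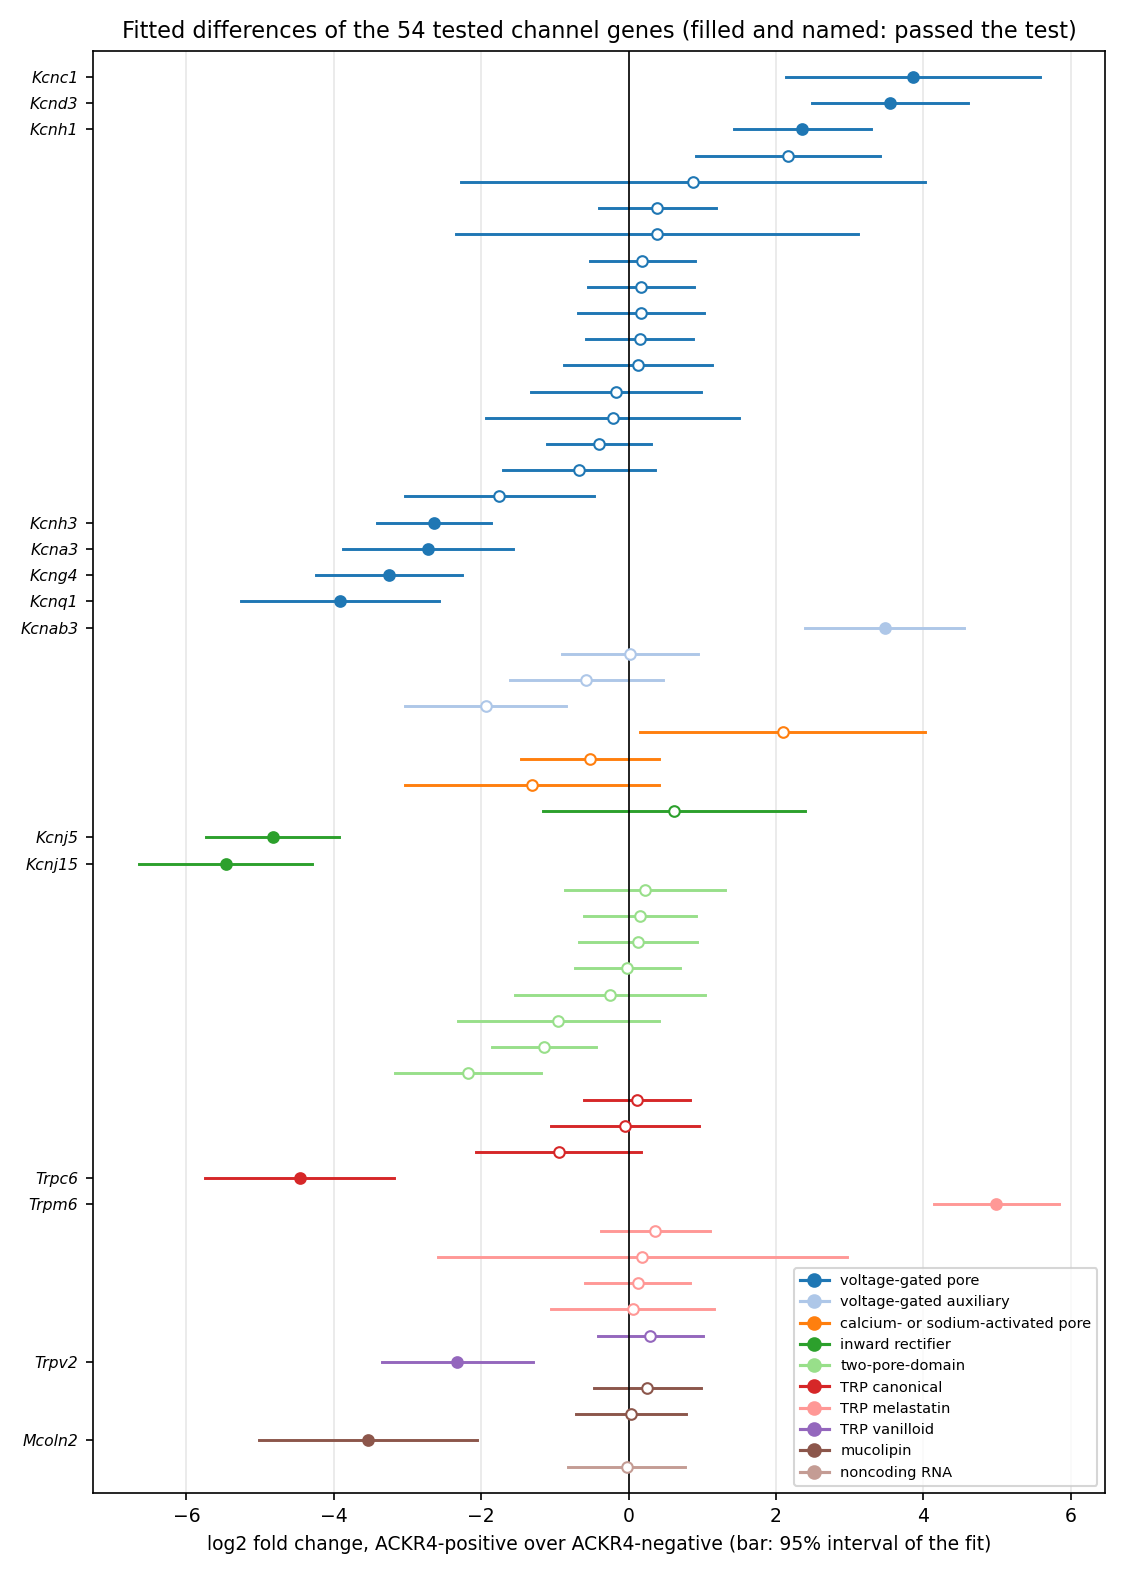
Fitted log2 fold change, ACKR4-positive over ACKR4-negative, with the 95% interval of the fit as a bar, for the 54 tested channel genes grouped by family (colour), with names for the called genes. Filled circles passed the test, 5 to the right of 0 and 9 to the left, and most open circles lie within 1 log2 unit of 0.

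Of 14 inward rectifiers 3 were tested, and 2 of these fell while the third did not pass. Kcnj15 encodes Kir4.2, and its levels were 1.08 and 1.55 against -4.64 and -3.66 with ACKR4, a gap of -5.47 ± 0.44 or 44.2-fold (adjusted p = 0.0114). Kcnj5, a subunit of the channel that G proteins open, fell from -2.74 and -2.89 to -7.97 and -7.32, not well above background (-4.83 ± 0.34, at least 7.23-fold lower, adjusted p = 0.00970). Neither gene's groups overlapped, and both kept the call without any one array. With normexp Kcnj15 kept it (-4.20) and Kcnj5 lost it (-1.47, adjusted p = 0.0832, the highest of its 13 alternatives, whose lowest was 0.000618).

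Kcnj11 encodes Kir6.2, a pore of the channel that ATP closes. It lay at -5.66 and -3.97 against -4.59 and -3.81, the groups overlapped, and the difference was 0.62 ± 0.67 (adjusted p = 0.787).

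Two-pore-domain channels carry the background leak of potassium that holds the resting voltage. Of 14 genes 8 were tested and 0 were called by limma without a block (2 had an unadjusted p under 0.05), while 3 fell with the sort as a block. Kcnk3, the acid-sensitive channel TASK-1, lay at 0.26 and -0.43 in ACKR4-negative and at -2.46 and -2.06 in ACKR4-positive cells. The groups did not overlap, and the difference of -2.18 ± 0.37 had an adjusted p of 0.0504 without and 0.0106 with the block, with a range of 0.0106 to 0.221 over 14 alternatives. Kcnk6 lay at 0.58 and 0.63 against -0.46 and -0.63 (-1.15 ± 0.27, adjusted p = 0.109, with the block 0.0243, over 14 alternatives 0.0243 to 0.527). Kcnk12 was the third (-0.95 ± 0.52, adjusted p = 0.507, with the block 0.0457, over 13 alternatives 0.0457 to 0.924). The remaining 5, Kcnk4, Kcnk9, Kcnk13, Kcnk15 and Kcnk16, had differences between -0.25 and 0.22.

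Calcium- and sodium-activated pores gave 0 calls by limma without a block among 3 tested of 8 (1 had an unadjusted p under 0.05). At its brightest probe Kcnn3 lay at -3.60 and -3.49 against -3.72 and -4.43, lower in both sorts by a difference of -0.53 with a 95% interval from -1.47 to 0.41. The other Kcnn3 probe, also well above background on all 4 arrays, was lower in sort 1 alone. It lay at -4.34 and -4.09 against -4.91 and -3.98, a difference of -0.22. Kcnn4 lay at -1.75 and -2.47 against -4.24 and -2.60, so that the gap was wide in sort 1 and narrow in sort 2 (-1.31 ± 0.65, adjusted p = 0.460). Kcnu1, known from sperm, lay at -7.01 and -5.86 against -5.20 and -3.49. It was higher in both sorts and its groups did not overlap, but its difference of 2.09 ± 0.73 passed only with the block (adjusted p = 0.268 without and 0.00480 with it, over 13 alternatives 0.00480 to 0.805). The 4 Kcnmb auxiliary subunits were not tested.

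Of 8 melastatin TRP genes 5 were tested, and Trpm6 alone was called. It is a magnesium channel fused to a kinase, known from kidney and gut, and its levels were -7.02 and -6.82 on the ACKR4-negative arrays and -1.67 and -2.19 on the ACKR4-positive arrays. It was not well above background in ACKR4-negative cells of either sort, and the groups did not overlap (4.99 ± 0.32, at least 12.5-fold higher, adjusted p = 0.00815). The call was kept in each of 13 alternatives that tested it, though normexp gave a smaller value (1.87). Trpm7, the related channel kinase that most cells use for magnesium, lay at -0.47 and -0.45 against -0.23 and -0.45, a difference of 0.12 with a 95% interval from -0.59 to 0.84.

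Among the other melastatin genes, Trpm4, a calcium-activated channel for monovalent ions, lay at -2.42 and -1.59 against -2.21 and -1.68 (0.06 ± 0.42). The cold receptor Trpm8 was higher in both sorts by 0.36 ± 0.28 without passing (adjusted p = 0.679). Trpm1 lay at -1.27 and 0.74 against -1.23 and 1.07, so that both groups were higher in sort 2 (0.19 ± 1.05). Trpm2, Trpm3 and Trpm5 were well above background on no array.

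Canonical TRP channels open downstream of phospholipase C. Of 7 genes 4 were tested, and Trpc6, which diacylglycerol opens and which is known from smooth muscle, platelets and endothelium, fell. It lay at -3.72 and -2.68 in ACKR4-negative and at -7.99 and -7.34 in ACKR4-positive cells, where it was not well above background (-4.46 ± 0.48, at least 5.53-fold lower, adjusted p = 0.0178). The groups did not overlap, yet the call was lost without the ACKR4-positive array of sort 1 (adjusted p = 0.0516) and with normexp (-1.28, adjusted p = 0.195), and over 13 alternatives its adjusted p ran from 0.000512 to 0.195.

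Trpc4, a channel of endothelial calcium entry, had a difference of -0.05 with a 95% interval from -1.05 to 0.95. The 2 tested probes named Trpc2 in the files gave differences of 0.11 and 1.33, and RefSeq names the transcript of the first Xntrpc. Trpc1 was well above background on 1 array, and Trpc5 and Trpc7 on none.

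Of 5 vanilloid TRP genes Trpv2 and Trpv6 were tested. Trpv2, a calcium-permeable channel known from macrophages and endothelium, fell from -1.40 and -0.94 to -3.86 and -3.13, with no overlap (-2.32 ± 0.39, 5.00-fold lower, adjusted p = 0.0474). This call was the least settled of the 14, since it was lost without any one array (highest adjusted p 0.190), with normexp (0.0741), with quantile normalization (0.0505) and with either other filter on dim probes (0.0583 and 0.0592), and with the block it was 0.00240. Trpv6, a calcium-selective channel of epithelia, had a difference of 0.30 ± 0.27. Trpv1, Trpv3 and Trpv5 were well above background on no array.

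All 3 mucolipins were tested, and 1 fell. Mcoln1, the lysosomal calcium channel that most cells use, was bright in both groups at 2.09 and 1.79 against 2.01 and 1.94, a difference of 0.03 with a 95% interval from -0.71 to 0.77. The other Mcoln1 probe had a mean level of -5.98 and was well above background on the ACKR4-positive array of sort 1 alone. Mcoln2, known from immune cells, lay at -3.82 and -3.49 in ACKR4-negative and at -7.92 and -6.46 in ACKR4-positive cells, where it was not well above background (-3.54 ± 0.56, at least 4.04-fold lower, adjusted p = 0.0420). Its call was kept only without the ACKR4-positive array of sort 2 (highest adjusted p 0.114) and was lost with normexp (-0.89). Mcoln3 lay between -3.72 and -3.29 on the 4 arrays (0.26 ± 0.27).

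Other channels and channel regulators were taken from a list of 60 genes that work beside the members. Of 46 tested, 1 rose and 6 fell, with a median log2 fold change of 0.07, and with the sort as a block 3 rose and 10 fell. The rise was Lrrc26, an auxiliary subunit of the large-conductance calcium-activated channel, from -7.47 and -7.07 to -3.62 and -3.03 (3.95 ± 0.35, at least 4.75-fold, adjusted p = 0.0132). Its relative Lrrc55 fell from -0.72 and -1.01 to -7.51 and -7.34 (-6.56 ± 0.28, at least 28.0-fold, adjusted p = 0.00630). Kcnma1, the pore that both join, was well above background on 1 array, as given above.

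Abcc9, the sulfonylurea receptor that joins inward rectifier pores in ATP-sensitive channels, fell from 4.84 and 4.56 to 0.50 and -0.49 (-4.70 ± 0.43, adjusted p = 0.0134). The stretch-activated channel Piezo2 fell from -1.82 and -3.05 to -7.95 and -7.29 (-5.18 ± 0.53, at least 9.40-fold, adjusted p = 0.0161), while Piezo1, the shear sensor of endothelium, lay at 2.94 and 2.47 against 2.87 and 2.23 (-0.15 ± 0.37). Piezo1 was thus bright in both groups. P2rx1, the ATP-gated channel of platelets, fell from 0.21 and 0.51 to -3.95 and -3.39 (-4.03 ± 0.34, adjusted p = 0.0119). The calcium-activated chloride channel Ano1 fell from -0.55 and -1.0 to -5.48 and -5.55 (-4.74 ± 0.30, adjusted p = 0.00806).

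Atp1b1, a subunit of the sodium pump, fell from -1.32 and -2.82 to -6.54 and -6.98 (-4.69 ± 0.58, at least 12.1-fold, adjusted p = 0.0235), a call lost without either ACKR4-positive array. The calcium release channel Itpr1 was higher in both sorts at 2.09 ± 0.37 (adjusted p = 0.0563), and the calcium entry pore Orai2 lower at -1.84 ± 0.36 (adjusted p = 0.0684), neither passing. Nos3, the endothelial nitric oxide synthase, lay at 4.41 and 4.07 against 4.41 and 4.28 (0.10 ± 0.29).

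Markers of other cell types also differed between the groups. The summed signal of 10 megakaryocyte and platelet genes, relative to each array's 75th percentile, was 103 and 233 on the ACKR4-negative arrays but 0.622 and 2.10 on the ACKR4-positive ones, and 10 of 10 tested genes fell. Of these, Itga2b, Gp5, Tubb1 and Gp6 were not well above background on either ACKR4-positive array. Mural genes, of which 2 of 9 tested fell (9 with the block), summed to 41.8 and 84.4 against 16.5 and 9.97, and the smooth muscle gene Myh11 was not well above background in ACKR4-positive cells. Erythroid genes, of which 3 of 6 tested fell, summed to 384 and 28.3 against 16.4 and 59.5. In these bulk samples, fewer cells of a type and less RNA per cell cannot be told apart, and the part of these markers in the falls of Kcna3, Trpc6, Kcnj15, Mcoln2, P2rx1, Abcc9 and the other channels was not tested.

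Among lymphocyte markers 1 of 8 tested fell (Lck), with sums of 3.62 and 5.64 against 2.27 and 5.25. Macrophage markers summed to 47.1 and 70.3 against 56.6 and 129, and nerve and glia markers to 22.5 and 34.3 against 25.9 and 70.0, with 0 of 9 and 0 of 8 tested called by limma (2 and 1 at an unadjusted p under 0.05). With the block 3 macrophage genes fell and 2 nerve and glia genes rose. Granulocyte and fibroblastic reticular lists had 0 of 3 and 0 of 7 called by limma (0 and 2 at an unadjusted p under 0.05), and with the block 1 fell in the first and 1 rose and 2 fell in the second. Of 10 endothelial markers 3 fell (Kdr, Esam and Emcn), while Pecam1 lay at 3.41 and 2.84 against 3.36 and 2.58 and Cdh5 at 5.20 and 4.95 against 4.67 and 4.09, neither passing the test.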

How the data were processed

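Probes with 4 spots each were read on 1-colour arrays of 4 samples. Per the file headers, the authors' spot values are an intensity, the processed signal of Agilent Feature Extraction 10.7.3.1, background-subtracted and detrended within each array. The deposited table of processed intensities was an alternative. From these, log2 signals of unflagged spots (1.91% to 1.96% flagged) were averaged per probe and the array's 75th percentile was subtracted. Testing required that, in both sorts of one group, over 50% of the probe's spots carried the scanner software's flag for signal well above background, and the brightest probe stood for its gene. Signals of different probes are not on 1 scale, so levels are compared within a gene. No non-control spot was saturated, and the small number of arrays limits the precision.

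Groups were compared with limma 3.58.1 in R 4.3.3 (lmFit and eBayes, 2-sided), with Benjamini-Hochberg adjustment over 17361 genes, after a check on simulated data. For lower bounds, a dim value was replaced by the smallest flagged level of that array where that was higher. The labels give a replicate number, not a sort number. It is read as the sort because both arrays of a replicate carry the same mouse number in the titles and the design text names 2 sorts. Their deviations from the group means correlated at 0.605 over 17361 genes. All arrays shared 1 slide and 1 scan. Members and lists were chosen with earlier results of these data known. Named are all called members, those detected in 1 group alone, the 15 brightest, those at least 2-fold apart in both sorts (up to 12 per direction), called genes and the 6 lowest p of the list of other channels, and of each marker list up to 4. A few genes named by these rules are left out of this text. Other names complete a family, or were chosen after their values were seen. Figures were drawn with matplotlib 3.10.9.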

Additional observations from a re-analysis of the deposited data

How the results depend on the processing

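The count of called channel genes was 14 of 54 tested. It was 7 with normexp background correction (4 risen, or 57.1% of calls against 35.7%), 6 of 40 tested with the stricter filter (3 risen, or 50% of calls), and 6 to 11 with 1 array left out, with 6 without any one but the ACKR4-positive array of sort 2. Such a fit leaves 1 array in a group, assumed to vary like the others. Over quantile normalization, median centring, the deposited values, no filter on dim probes, the mean of a gene's probes, flagged spots kept, file names alone, a trended prior and an adjusted p under 0.1 it was 11 to 17, and with the sort as a replicate block 21. Over all genes the count of 981 became 448 with the stricter filter, 2709 with the block and 413 to 883 with 1 array left out, and the causes were not tested. With normexp 773 of all genes were called, and 35.3% of these calls were risen against 33.9% in the main fit. With the stricter filter the share risen was 37.1%. The member share of 57.1% with normexp rests on 7 calls. Members well above background were 64, the same by any probe and 60 by every spot. Of 409 fits of 30 named members under alternatives, 41 lost a call, 10 gained one and 0 called values changed sign. Trpm6 and Kcnj15 were called in each fit that tested them. Median centring moved the median of all genes to 0.11, from 0.04. A slide block was not run, as there was 1 slide. Values near the background limit what can be said of the 62 untested members.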

Other observations

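Of 40 members well above background on all 4 arrays, 2 followed the sort in both groups by at least 2-fold, Trpm1 and Kcna7, which is 5% against 6.13% of 15697 genes detected in the same way. Trpm1 lay at -1.27 on the ACKR4-negative and -1.23 on the ACKR4-positive array of sort 1, and at 0.74 and 1.07 on those of sort 2. Its probe (chr7:71371607-71371666 on mm9, plus strand) ends in gaagaagaagaaagaggaagagattgacat and holds 78.3% A or G, which is at the 99.7 percentile of all probes, whose median is 50%. The other 3 Trpm1 probes had mean levels of -5.60, -6.83 and -7.43. The first of these was also higher in sort 2, at -6.77 and -3.74 on the ACKR4-negative arrays of sorts 1 and 2. On the ACKR4-positive arrays it lay at -6.80 and -5.1. It was well above background on the ACKR4-negative array of sort 2 alone, and the remaining ones on no array. The part of the base content in these values was not tested. At its brightest probe Kcna7 lay at -1.96 and -1.99 in sort 1 and at -0.29 and 0.50 in sort 2. The other Kcna7 probe, also well above background on all 4 arrays, did not show this gap. It lay at -1.53 on both arrays of sort 1 and at -1.75 on both of sort 2. These values were chosen after they were seen.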
